A study of Mus musculus with 2 samples.

Results

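The 10 genes described here encode proteins that coat, grow or protect the lipid droplet of liver cells: Plin2, Plin4, Plin5, Cidea, Cideb, Cidec, Fitm1, Fitm2, G0s2 and Hsd17b13. They were taken by symbol from the gene table of the deposited matrix, and all 10 were found among its 32285 genes. They were measured by droplet single-cell RNA sequencing of mouse liver. The labels name 2 samples, Cebp_KO with the genotype Cebp KO and Cebp_WT with the genotype Cebp WT, and livers of both came from mice fed a 40% HFCFD (high fat, high cholesterol and high fructose) for 2 weeks. The knockout line of the study carries a floxed Cebpa gene (Cebpa fl/fl) with Cre driven by the albumin promoter, which is active in hepatocytes; the study also used a tamoxifen-inducible line, and the labels do not say which line, how many animals or what age was used. The deposited matrix joins 2 libraries told apart by a barcode ending of 1 or 2 and called library 1 and library 2 here. As no label says which genotype either ending stands for, both libraries stay unassigned, and no difference between them is read as an effect of Cebpa.

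A lipid droplet is a core of neutral lipid, mostly triglyceride in hepatocytes, under a single layer of phospholipid in which coat proteins sit. Perilipins (PLIN2, PLIN4, PLIN5) cover that surface and limit the access of lipases, CIDE proteins (CIDEA, CIDEB, CIDEC) take part in droplet fusion and, for CIDEB, in the loading of very low density lipoprotein, and FIT proteins (FITM1, FITM2) sit in the endoplasmic reticulum, where droplets form. G0S2 inhibits the triglyceride lipase ATGL, the product of Pnpla2, and HSD17B13 is a droplet enzyme made mainly in hepatocytes. Most of these proteins rise when the liver stores fat.

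Positions are on mm10 (GRCm38). Plin2 lies at chr4:86648386-86670060 on the minus strand, G0s2 at chr1:193272161-193273217 (minus), Hsd17b13 at chr5:103955440-103977410 (minus), Cideb at chr14:55754050-55758458 (minus) and Fitm1 at chr14:55575617-55576954 (plus). Plin4 (chr17:56100591-56109803) and Plin5 (chr17:56111601-56117596) are neighbours on the minus strand, Cidec lies at chr6:113424634-113435760 (minus) and Fitm2 at chr2:163466379-163472629 (minus). All 10 are protein coding. The promoter table of RefSeq (build GRCm38.p6) held 9 of the 10, all but Cidea. The 3 promoters printed here belong to the 2 members that differed most between the libraries in deeply sequenced hepatocyte-like cells, G0s2 and Plin2, and to Cideb, which did not differ beyond counting error there. Each run is the stretch of the 250 bases before the RefSeq start that lies upstream of every annotated start, written 5′ to 3′ on the gene's strand. Capitals mark TATAAA.
G0s2, chr1:193273218-193273438: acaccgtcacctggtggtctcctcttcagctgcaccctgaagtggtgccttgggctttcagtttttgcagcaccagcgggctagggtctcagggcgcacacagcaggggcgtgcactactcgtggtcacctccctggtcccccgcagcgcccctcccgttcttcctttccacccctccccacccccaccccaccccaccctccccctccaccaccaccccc
Plin2, chr4:86670218-86670309: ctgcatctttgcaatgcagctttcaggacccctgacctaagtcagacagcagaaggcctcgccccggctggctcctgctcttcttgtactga
Cideb, chr14:55758459-55758674: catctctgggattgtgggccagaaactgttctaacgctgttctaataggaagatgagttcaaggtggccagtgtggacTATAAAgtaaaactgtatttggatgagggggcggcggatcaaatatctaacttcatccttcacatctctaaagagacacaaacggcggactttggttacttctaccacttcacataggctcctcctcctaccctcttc

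In the whole 250-base windows, 3 motifs were searched on both strands. The DR1 element bound by PPAR and RXR, a direct repeat of AGGNCA with 1 base between the copies, was in 0.338% of 32851 promoters, TTGCNNAA, the core of the C/EBP motif, in 9.56%, and TATAAA in 12.4%. None of the 9 members held the direct repeat in its window. The C/EBP core was found once among the members, at a second start of Cidec, and TATAAA once, in Cideb, 172 bases before the start. A match or its lack says only which letters these windows hold.

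Library 1 held 17313 barcodes and 60048646 UMIs (unique molecular identifiers, each 1 captured cDNA molecule), and library 2 held 15003 barcodes and 52355243 UMIs. After filters on depth and mitochondrial share, 11617 and 6088 droplets remained, most of them hepatocyte-like with under 5000 UMIs. Hepatocyte-like droplets with at least 5000 UMIs, called deep from here on, numbered 608 and 566, with median depths of 25378 and 12578.5 UMIs. The 11 hepatocyte markers of the gate summed to 115904 and 118336 CPM (UMIs per 1000000) in them, against 67.2 and 97.3 CPM for the 9 macrophage markers and 229 and 261 CPM for the 6 erythroid ones. The other 11 marker lists summed to at most 40.3 CPM. Barcode sequences shared by the libraries numbered 34 among kept droplets and 0 among deep cells. Cebpa, the targeted gene, stood at 1.30 CPM in library 1 and 108.8 CPM in library 2 in deep cells, and no library was assigned from it. With 1 library a side there is no replicate, so intervals are exact 95% Poisson intervals of the summed UMIs and cover counting error only.

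In deep hepatocyte-like cells, Plin2 and G0s2 differed most between the libraries among the members that could be compared, both with the higher level in library 2. Plin2, the main perilipin of the liver, stood at 223 CPM (95% interval 215 to 230, 3261 UMIs) in library 1 and at 434 CPM (420 to 449, 3614 UMIs) in library 2, 1.95-fold higher in the latter. G0s2, the ATGL inhibitor, stood at 85.9 CPM (81.3 to 90.8) and 235 CPM (225 to 246), 2.74-fold higher in library 2. Neither pair of intervals overlapped. Whether animals of one group vary by as much cannot be read from 1 library each.

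A fold of 2 was set as the size to count, with 3 UMIs added to each sum, and genes with a mean of at least 5 CPM were compared. Of the 10 members 7 passed that filter and 3 (Plin4, Cidea, Cidec) did not. In library 2, 1 of the 7, G0s2, was at least 2-fold higher, where 2.93% of the 8443 genes compared were. In library 1, 0 of the 7 were, where 2.11% of genes were. Ranked from the lowest to the highest log2 ratio of library 1 over library 2 among all genes compared, G0s2 (log2 ratio -1.45) fell at percentile 1.5 and Plin2 (-0.96) at percentile 3.12. The median log2 ratio over the 7 was -0.22 and over all genes compared 0.01.

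**Figure D1:**
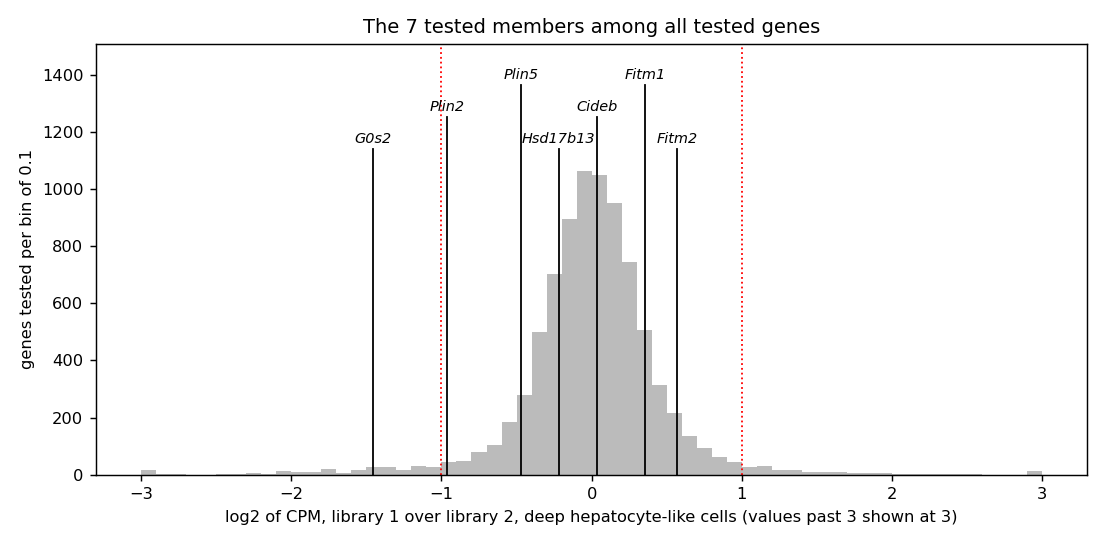
Histogram of the log2 ratio of CPM, library 1 over library 2, for the 8443 genes compared in deep hepatocyte-like cells (bins of 0.1 on the x axis, genes per bin on the y axis), with the 7 members as black lines and the 2-fold limits dotted. G0s2 lies past the limit, Plin2 just inside it, and Cideb at the middle of the distribution.

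The other perilipins were read at lower counts. Plin5, which holds droplets near mitochondria, stood at 33.7 CPM (30.7 to 36.8) in library 1 and 46.5 CPM (42.0 to 51.4) in library 2, 1.38-fold higher in the latter with intervals apart. Plin4, a perilipin best known from fat and muscle, gave 26 and 14 UMIs, or 1.77 and 1.68 CPM with overlapping intervals, too few to compare.

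Among the CIDE genes, Cideb was the one read at depth and showed no difference beyond counting error. It stood at 125 CPM (120 to 131) in library 1 and 122 CPM (115 to 130) in library 2, a log2 ratio of 0.04. Cidec, the fat-specific protein that rises in fatty liver, gave 36 and 11 UMIs, or 2.46 CPM (1.72 to 3.4) and 1.32 CPM (0.66 to 2.37). Cidea gave 0 UMIs in both sets of deep cells, which allows a level of up to 0.205 CPM in library 1 and 0.361 CPM in library 2, the level of 3 UMIs. Outside deep cells it gave 3 and 4 UMIs in the hepatocyte-like droplets under 5000 UMIs.

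Both FIT genes were higher in library 1 in deep cells, by less than 2-fold. Fitm2, the FIT gene of most tissues, stood at 29.8 CPM (27.0 to 32.7) and 19.8 CPM (16.9 to 23.1), a log2 ratio of 0.57 with intervals apart. Fitm1, better known from muscle, stood at 19.7 CPM (17.5 to 22.1) and 15.1 CPM (12.6 to 18.0), with overlapping intervals. Hsd17b13 stood at 343 CPM (334 to 353) and 400 CPM (386 to 414), a log2 ratio of -0.22 with intervals apart. In cells with at most 10% mitochondrial UMIs (119 and 178 deep cells), the higher level of Fitm2 in library 1 was lost, at 9.93 and 11.7 CPM. Its log2 ratio was -0.15, and no interval was taken there. The difference in Hsd17b13 was lost as well, with a log2 ratio of 0.0074.

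Levels of genes that overlap a neighbour on the other strand could hold UMIs of that neighbour, since the sources used here do not say how strand was treated in counting. Cideb overlaps Nop9 (14.2 and 12.1 CPM in deep cells) and G0s2 lies within Lamb3 (2.94 and 3.97 CPM). Both neighbours gave far fewer UMIs than the member in each library. Plin4 goes the other way: Hdgfl2, which overlaps its last bases, gave 203 and 119 UMIs against 26 and 14 for Plin4. The antisense gene at Fitm1, Gm15932, gave 1 UMI in each library, and that at Fitm2 gave 0.

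Other genes of droplet metabolism were read from lists in the same cells. Of 12 further droplet genes 7 were compared and 0 were past 2-fold in either direction, with a median log2 ratio of 0.10. Below the filter of 5 CPM lay Smpdl3b, a sphingomyelinase-like phosphodiesterase, at 9.08 CPM (7.60 to 10.8, 133 UMIs) in library 1 and 0.72 CPM (0.26 to 1.57, 6 UMIs) in library 2, and Cav1, the caveolin of caveolae, at 3.07 CPM (2.24 to 4.11, 45 UMIs) and 0.24 CPM (0.03 to 0.87, 2 UMIs), both named after their values were seen and both with intervals apart. Of 9 triglyceride synthesis genes 7 were compared and again 0 passed, with a median of -0.16. Of 10 lipolysis genes 9 were compared, and 1, Ces1g, a carboxylesterase, was past 2-fold higher in library 1, at 352 CPM (343 to 362) against 139 CPM (131 to 147); reads of close Ces1 paralogs may be split in counting. The median log2 ratio of the lipolysis genes was 0.45, the highest of these lists, against 0.01 over all genes, of which 2.11% were past 2-fold higher in library 1. Pnpla2, which encodes the lipase that G0S2 inhibits, stood at 49.6 CPM (46.0 to 53.3) in library 1 and 36.1 CPM (32.1 to 40.4) in library 2, and Abhd5, which encodes its activator, at 16.7 CPM (14.7 to 19.0) and 14.4 CPM (12 to 17.2). Pnpla2 and Abhd5 were named after their values were seen, for their tie to G0s2. Of 11 regulators 9 were compared, with a median of -0.03. Cebpa alone was past 2-fold, higher in library 2, where 2.93% of all genes compared were.

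The list of 14 PPARA targets is of interest because Plin2 and Plin5 are themselves known targets of PPARA, the fatty acid sensor of the fasted liver. Of the 13 compared, 1 was past 2-fold higher in library 1, against 2.11% of all genes, and 3 in library 2, against 2.93%, and the median log2 ratio was 0.07. Cd36, a fatty acid transporter, stood at 5.19 CPM (4.09 to 6.49) in library 1 and 22.4 CPM (19.3 to 25.8) in library 2. The others, named after their values were seen, were below 20 CPM in both libraries. Acot1 stood at 2.46 and 9.49 CPM, Fgf21 at 1.57 and 9.37 CPM, and Vnn1, the one higher in library 1, at 19.0 and 5.77 CPM. Acot1 and Fgf21 passed the filter on a mean of 5 CPM only through the library where they are high, so their part in the count is not evidence about the list. Ppara itself stood at 197 CPM (190 to 204) and 193 CPM (184 to 203).

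Across cell classes, Cideb and Hsd17b13 were highest in deep hepatocyte-like cells in both libraries, with no overlap of intervals with the next class. In each library 12 classes with at least 20 cells were compared, leaving out shallow hepatocyte-like droplets. Of the 7 members with at least 5 CPM in some class, 4 were highest in deep hepatocyte-like cells in library 1 (Plin5, Cideb, Fitm2, Hsd17b13) and 4 in library 2 (Plin2, Plin5, Cideb, Hsd17b13). Among all genes the deep hepatocyte-like class was highest for 9.49% of 14625 in library 1 and 9.0% of 15229 in library 2. Hsd17b13 was followed by the stellate-like class at 115 CPM (55.0 to 211) in library 1 and by the neutrophil-like class at 144 CPM (85.1 to 227) in library 2. Cideb was followed by neutrophil-like cells at 52.5 CPM (30.6 to 84.0) and by NK-like cells at 47.7 CPM (17.5 to 104). Plin5 was next highest in NK-like cells in library 1, at 23.0 CPM (8.44 to 50.1), where the intervals overlap, and in endothelial-like cells in library 2, at 12.3 CPM (5.62 to 23.3), where they do not.

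Each class held UMIs of Alb, the albumin message of hepatocytes. Droplets can take up RNA set free from broken cells, and no empty droplets were analysed here to measure it. Levels were therefore also set per 1000 Alb UMIs of the same class, and what part free RNA or doublets had in them was not tested. For Hsd17b13 that ratio was 8.97 and 9.74 in deep hepatocyte-like cells, 4.98 and 7.01 in T-like cells and 5.19 and 6.11 in B-like cells. In plasma-like cells it was 14.4 (10.0 to 20.1) in library 1 and 8.36 (5.35 to 12.4) in library 2, where 1 droplet held 19 of the 35 Hsd17b13 UMIs of library 1 and 1 held 13 of the 24 of library 2. In droplets that passed no gate the ratio was 13.7 and 17.3. T-like and B-like cells were thus below deep hepatocyte-like cells in both libraries, and the droplets without a class above them. Of T-like cells 20.8% and 28.5% had an Hsd17b13 UMI at median depths of 4618 and 4223 UMIs. Of deep cells thinned to 5000 UMIs 73.7% and 80.2% had one.

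Plin2 was also high in cells gated as Kupffer or macrophage-like. It stood at 270 CPM (252 to 289) in 346 cells in library 1 and 300 CPM (282 to 318) in 520 cells in library 2. In library 1 this was the highest of the classes compared, above deep hepatocyte-like cells with intervals apart. With a mitochondrial limit of 10% that order turned: Plin2 stood at 328 CPM in deep hepatocyte-like cells in library 1, the highest class there. Hepatocyte-like droplets under 5000 UMIs, which were not among the classes compared, stood at 326 CPM (315 to 336) in library 1 and 525 CPM (505 to 545) in library 2. In each library this was above macrophage-like cells with intervals apart. Per 1000 Alb UMIs, Plin2 stood at 32.1 and 25.1 in macrophage-like cells against 5.82 and 10.6 in deep hepatocyte-like cells and 8.43 and 9.13 in T-like cells. The macrophage-like value was above both in each library. Of macrophage-like cells 75.1% and 74.6% had a Plin2 UMI, at median depths of 8361 and 6391.5 UMIs, and of T-like cells 32.9% and 33.9%. Neutrophil-like cells held 114 CPM (80.4 to 157) in 114 cells and 359 CPM (262 to 480) in 48 cells, and monocyte-like cells 127 CPM (88.2 to 176) in 40 cells and 292 CPM (205 to 405) in 20 cells, with intervals apart between the libraries in each. In library 2, 1 monocyte-like cell held 12 of the 36 Plin2 UMIs of that class, so the monocyte-like difference rests in part on that cell.

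Among the classes compared, G0s2 was highest in stellate-like cells in both libraries, though on few UMIs. There it stood at 183 CPM (105 to 298) from 16 UMIs in 41 cells in library 1 and 279 CPM (199 to 379) from 40 UMIs in 75 cells in library 2. In library 2 this overlaps the level in deep hepatocyte-like cells, and in library 1 it overlaps that of neutrophil-like cells, at 95.7 CPM (65.0 to 136). With a mitochondrial limit of 10%, deep hepatocyte-like cells were the highest class in library 2, at 330 CPM. Hepatocyte-like droplets under 5000 UMIs, which were not among the classes compared, stood at 370 CPM (353 to 387) in library 2, with an interval that overlaps that of stellate-like cells. Per 1000 Alb UMIs, the stellate-like values were 9.51 (5.44 to 15.4) and 14.2 (10.2 to 19.4) against 2.25 (2.12 to 2.37) and 5.74 (5.49 to 6.0) in deep cells. Hepatocyte-like droplets under 5000 UMIs, whose median depths of 1140 and 1212 UMIs are nearer to the 2114 and 1769 of stellate-like cells, were at 2.93 (2.76 to 3.11) and 10.2 (9.71 to 10.6), and neutrophil-like cells at 5.54 (3.76 to 7.86) and 10 (6.30 to 15.2), so that in library 2 both overlap the stellate-like value. T-like cells, at 2.43 and 6.41 per 1000 Alb, had intervals that overlap those of deep cells in library 1 (1.87 to 3.10) and in library 2 (5.49 to 7.44). G0s2 was higher in library 2 in all 12 classes compared, with overlapping intervals in 4 of them (stellate-, monocyte-, neutrophil- and plasma-like).

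**Figure D2:**
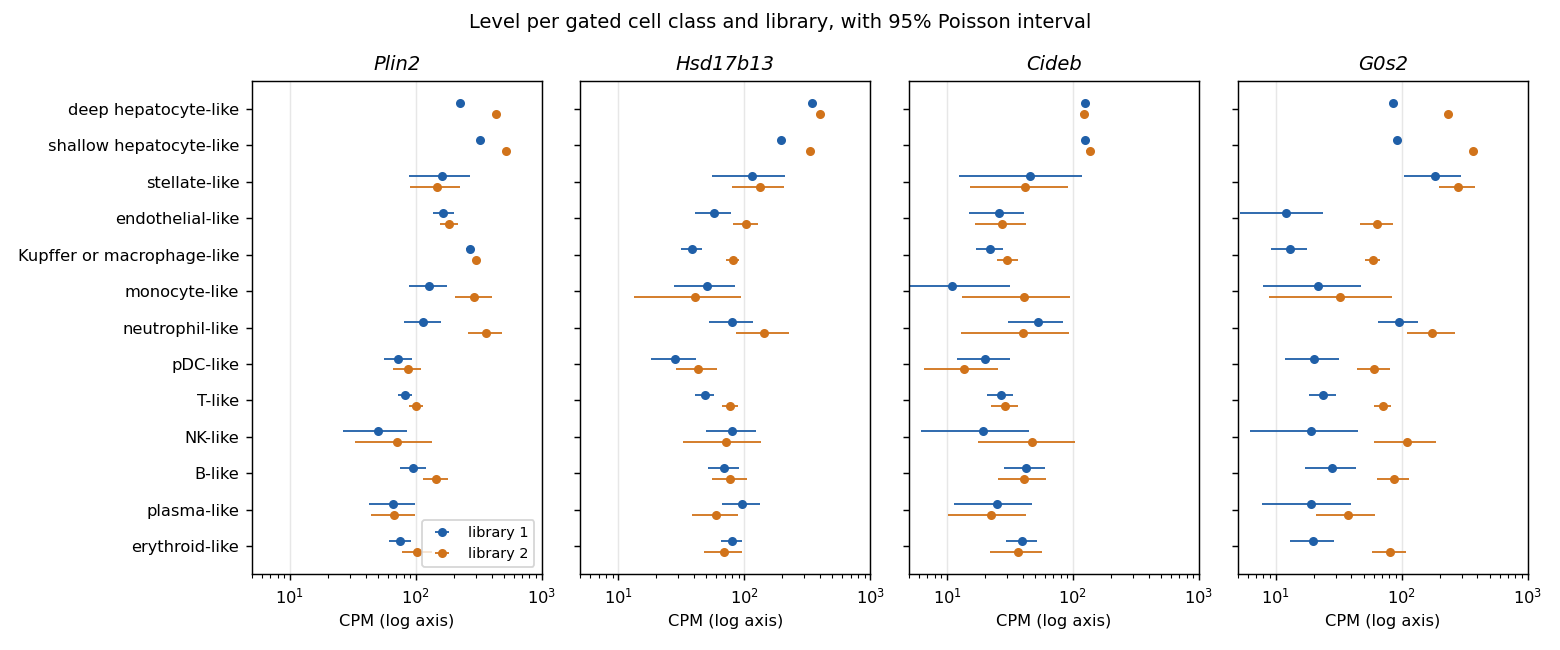
CPM (log axis) of Plin2, Hsd17b13, Cideb and G0s2 in each gated class (rows), library 1 in blue and library 2 in orange, with exact 95% Poisson intervals as bars. Hsd17b13 and Cideb are highest in the hepatocyte-like classes, Plin2 is also high in macrophage-like cells, and G0s2 in stellate-like cells.

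The low members were spread thinly over classes. Fitm1 was highest in stellate-like cells in library 1, from 3 UMIs, and in neutrophil-like cells in library 2, from 4 UMIs, and its intervals there overlap those of the next class. With a mitochondrial limit of 10% it was highest in deep hepatocyte-like cells in both libraries, at 46 and 24 CPM. Fitm2 was highest in deep hepatocyte-like cells in library 1 and in stellate-like cells in library 2, at 20.9 CPM (4.31 to 61.1), again with overlap. Plin4, Cidea and Cidec stayed under 5 CPM in every class compared. Of these Cidea gave 1 UMI in the classes compared, in an endothelial-like cell in library 2.

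Fitm1 went with the depth and the mitochondrial share of the droplet, being higher in shallow droplets and in those with few mitochondrial UMIs. In hepatocyte-like droplets under 5000 UMIs Fitm1 stood at 92.6 CPM (87.2 to 98.2) in library 1 and 64.2 CPM (57.5 to 71.4) in library 2, against 19.7 and 15.1 CPM in deep cells. Within deep cells it stood at 82.7 CPM (61.8 to 108) in library 1 where under 5% of UMIs were mitochondrial (84 cells, median 5958 UMIs) and at 16.8 CPM (14.8 to 19.1) in the other 524. In library 2 the values were 27.3 CPM (19.2 to 37.6) in 125 cells and 12.8 CPM (10.3 to 15.7) in 441. Plin2 was likewise higher under 5%, at 399 CPM (351 to 452) against 215 (207 to 222) in library 1 and 640 CPM (598 to 684) against 394 (380 to 409) in library 2. Hsd17b13 was lower there, at 138 CPM (111 to 171) against 352 (343 to 362) and 302 CPM (273 to 332) against 419 (404 to 434), as was Fitm2, at 6.36 CPM (1.73 to 16.3) against 30.8 (28.0 to 33.9) and 9.59 CPM (5.11 to 16.4) against 21.8 (18.5 to 25.6). Alb moved with them, at 14622 CPM against 39328 in library 1 and 30572 against 43073 in library 2. Cyp2e1, a pericentral cytochrome P450, went the way of Fitm1, at 407 CPM against 306 in library 1 and 399 against 310 in library 2. In hepatocyte-like droplets under 5000 UMIs it stood between 1218 and 1464 CPM on either side of the split in both libraries. The split at 5% was chosen after the values were seen, and the part of depth and mitochondrial share in these levels was not tested.

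**Figure D3:**
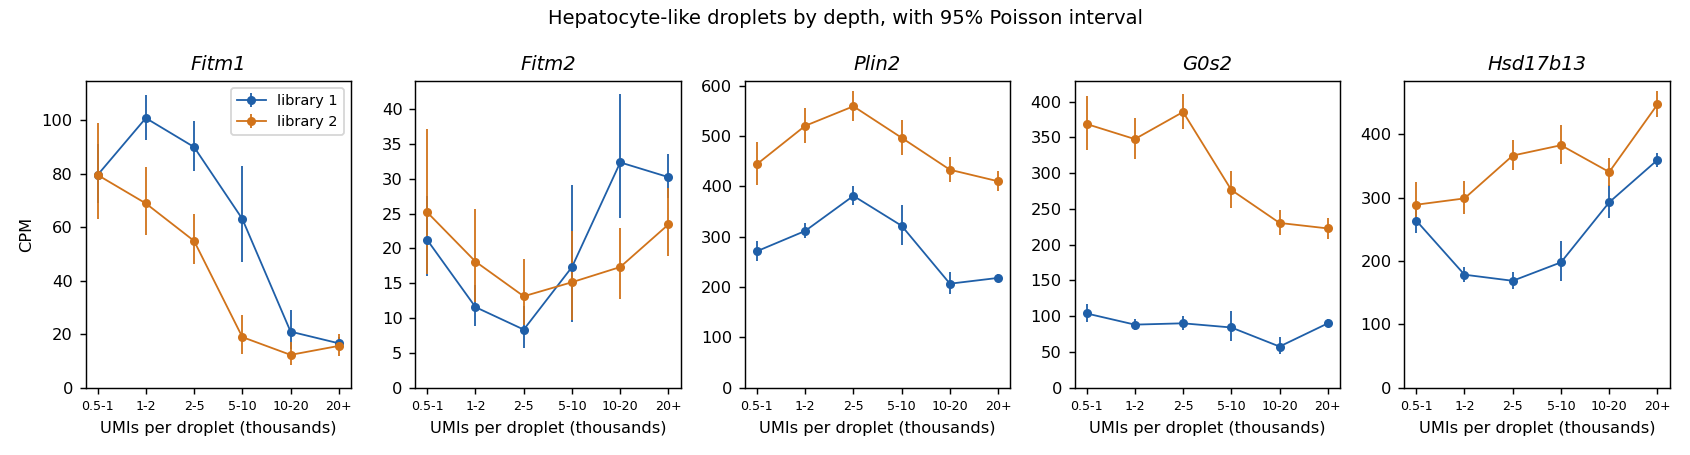
CPM of Fitm1, Fitm2, Plin2, G0s2 and Hsd17b13 (y axis) in hepatocyte-like droplets grouped by depth in UMIs (x axis), library 1 in blue and library 2 in orange, with exact 95% Poisson intervals. Fitm1 is highest in shallow droplets, at 100.8 CPM between 1000 and 2000 UMIs and 16.6 CPM from 20000 UMIs on in library 1, whereas Plin2 and G0s2 stay higher in library 2 at every depth.

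The G0s2 and Plin2 differences between the libraries were seen at each depth and on both sides of the mitochondrial split. In deep cells with at least 5% mitochondrial UMIs the log2 ratios were -1.34 for G0s2 and -0.88 for Plin2, and with a limit of 10% they were -1.36 and -0.88. In hepatocyte-like droplets under 5000 UMIs, G0s2 stood at 92.2 CPM (86.8 to 97.8) and 370 CPM (353 to 387), and Plin2 at 326 CPM (315 to 336) and 525 CPM (505 to 545). Hsd17b13 stood at 194 CPM (186 to 202) and 330 CPM (314 to 346) there, a wider difference than in deep cells. Fitm2 went the other way from deep cells, at 12.6 CPM (10.7 to 14.8) and 17.1 CPM (13.7 to 21.0), with overlapping intervals. Cideb stayed close in these droplets as well, at 124 CPM (118 to 130) and 137 CPM (127 to 147). Subtracting the mean UMIs per droplet of B-like and T-like cells, as a stand-in for free RNA, gave log2 ratios of -1.52 for G0s2 and -1.10 for Plin2, so that Plin2 too was past 2-fold.

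Hepatocytes differ along the lobule, from the portal tract to the central vein. Deep hepatocyte-like cells of each library were ordered by the log ratio of summed UMIs of 9 pericentral to 9 periportal genes and cut into 3 equal parts, which are ranges and not cell types. The index had 1 UMI added to each sum, so it can shift with depth. In library 1 the periportal gene Cyp2f2 stood at 2089 CPM in the periportal part and still at 1749 CPM in the pericentral part. The pericentral gene Cyp2e1 stood at 91.4 and 840 CPM in these parts. In library 2 Cyp2f2 stood at 1321 and 858 CPM and Cyp2e1 at 120 and 771 CPM. Deep cells with at least 1000 CPM of Glul, another pericentral gene of the index, numbered 0 in library 1 and 1 in library 2. Fitm1 alone of the 7 members was past 1.5-fold between the outer parts, and in both libraries it was higher in the pericentral part. In library 1 it stood at 16 CPM (13 to 19.6) in the periportal part, 13.6 CPM (10.6 to 17.2) in the middle and 35.0 CPM (29.0 to 41.8) in the pericentral part. In library 2 it stood at 6.29 CPM (3.99 to 9.45), 10.3 CPM (6.79 to 15.0) and 37.1 CPM (29.2 to 46.5). Among all genes compared, 5.54% in library 1 and 19.3% in library 2 were at least 1.5-fold higher in the pericentral part, and 1.5% and 3.63% in the periportal part.

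Depth was lower towards the pericentral end, from a median of 31315 UMIs in the periportal part to 14962.5 in the pericentral part in library 1 and from 18385 to 7865 in library 2. The median mitochondrial share went from 16.3% to 14.1% and from 16.6% to 10.8%. Since Fitm1 went with both measures, its values were also taken in deep cells with at least 5% mitochondrial UMIs, where the log2 ratio of the periportal over the pericentral part was -0.72 in library 1 and -1.90 in library 2, against -1.12 and -2.44 in all deep cells. From 10000 UMIs on it was -0.62 and -1.97, and with a hepatocyte gate of 10% -0.67 and -1.25. The part of depth in the remaining difference was not tested.

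Hsd17b13 had the opposite slope to Fitm1. It stood at 369 CPM (354 to 384) in the periportal part and 276 CPM (259 to 294) in the pericentral part of library 1, and at 435 CPM (414 to 457) and 320 CPM (296 to 345) in library 2, 1.33- and 1.36-fold higher periportally with intervals apart in each. Alb had the same slope, at 41468 and 32510 CPM in library 1 and 47949 and 28228 CPM in library 2. In cells with at least 5% mitochondrial UMIs the log2 ratio of Hsd17b13 was 0.30 in library 1 and 0.39 in library 2, against 0.42 and 0.44 in all deep cells, and from 10000 UMIs on it was 0.23 and 0.45. The part of depth and mitochondrial share in this slope was not tested. G0s2 went in different directions in the libraries. It stood at 97.1 CPM (89.4 to 105) periportally and 78.0 CPM (69.0 to 87.9) pericentrally in library 1, and at 197 CPM (182 to 211) and 291 CPM (268 to 315) in library 2, 1.48-fold higher pericentrally. With a mitochondrial limit of 10% the log2 ratio in library 2 was -0.13, against -0.57 in all deep cells. That the libraries differ in this slope was not tested. Plin5 was 1.18-fold higher pericentrally in library 1, with overlapping intervals, and 1.40-fold in library 2, a difference that was lost in cells of library 2 with at least 5% mitochondrial UMIs (log2 ratio of the periportal over the pericentral part 0.02) and in library 1 with a mitochondrial limit of 10% (0.04). Plin2 and Cideb differed by at most 1.15-fold between the outer parts in either library, and Plin2 turned to a log2 ratio of 0.09 in library 2 in cells with at least 5% mitochondrial UMIs. With deep cells taken from 3000 UMIs on, Plin2 was higher pericentrally in both libraries, with log2 ratios of -0.46 and -0.39.

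**Figure D4:**
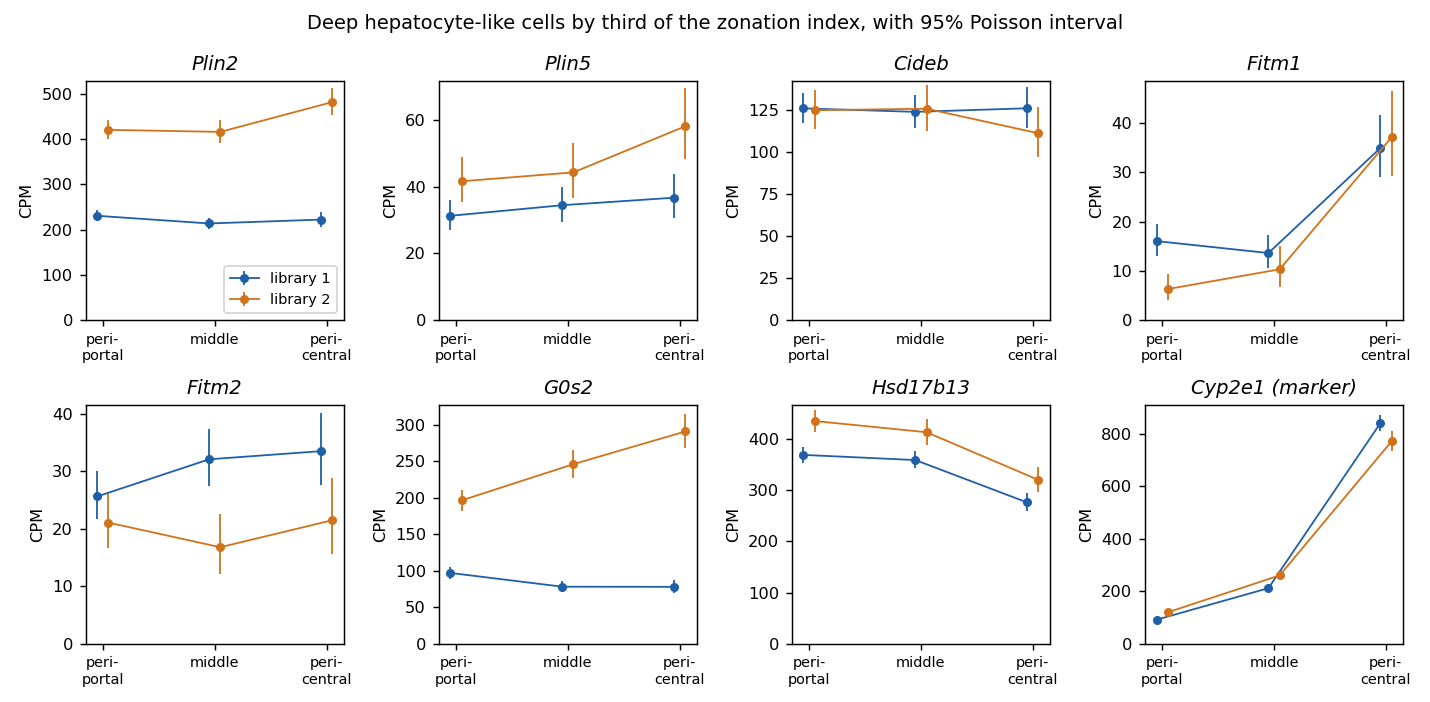
CPM (y axis) of the 7 members compared and of Cyp2e1, one of the pericentral genes of the index, in the 3 parts of the zonation order (x axis), library 1 in blue and library 2 in orange, with exact 95% Poisson intervals. Fitm1 is highest in the pericentral part in both libraries, Hsd17b13 is lowest there, and G0s2 slopes in opposite directions in the 2 libraries.

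To compare the spread among cells, each deep cell was thinned to 5000 UMIs. The variance over the mean of the thinned UMIs, which is 1 for counting error alone, was 1.17 and 1.72 for Plin2, 1.09 and 1.80 for G0s2, 1.33 and 1.43 for Hsd17b13, and 0.91 and 1.08 for Cideb. The median over all genes with a thinned mean of at least 0.2 was 1.11 in library 1 (2701 genes) and 1.14 in library 2 (2626 genes). Cideb was thus below that median in both libraries, Hsd17b13 and Plin2 above it in both, and G0s2 above it in library 2 only. Ranked from the widest spread, G0s2 was 275th and Plin2 311th of 2626 in library 2, and 1527th and 946th of 2701 in library 1. The thinned means differed too, at 0.42 and 1.28 UMIs for G0s2 and 1.19 and 2.21 for Plin2 in libraries 1 and 2. Variance over mean can rise with the mean, so these ranks do not separate spread from level.

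The shares of cells with a UMI follow the same order of libraries as the levels. After thinning, 66.6% (62.7 to 70.4, Clopper-Pearson) of deep cells in library 1 and 82.0% (78.6 to 85.1) in library 2 had a Plin2 UMI, against 93.9% and 96.1% before it. For G0s2 the shares were 33.1% (29.3 to 37.0) and 65.2% (61.1 to 69.1), against 66.3% and 84.6% before thinning, and 11.5% and 28.1% of T-like cells. For Cideb they were 46.2% (42.2 to 50.3) and 43.8% (39.7 to 48.0), against 85.5% and 74.0% before thinning, and 13.1% and 12% of T-like cells. At least 5 G0s2 UMIs were left in 0 of 608 cells in library 1 and in 22 of 566 in library 2, and at least 5 Plin2 UMIs in 7 and 70 cells.

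**Figure D5:**
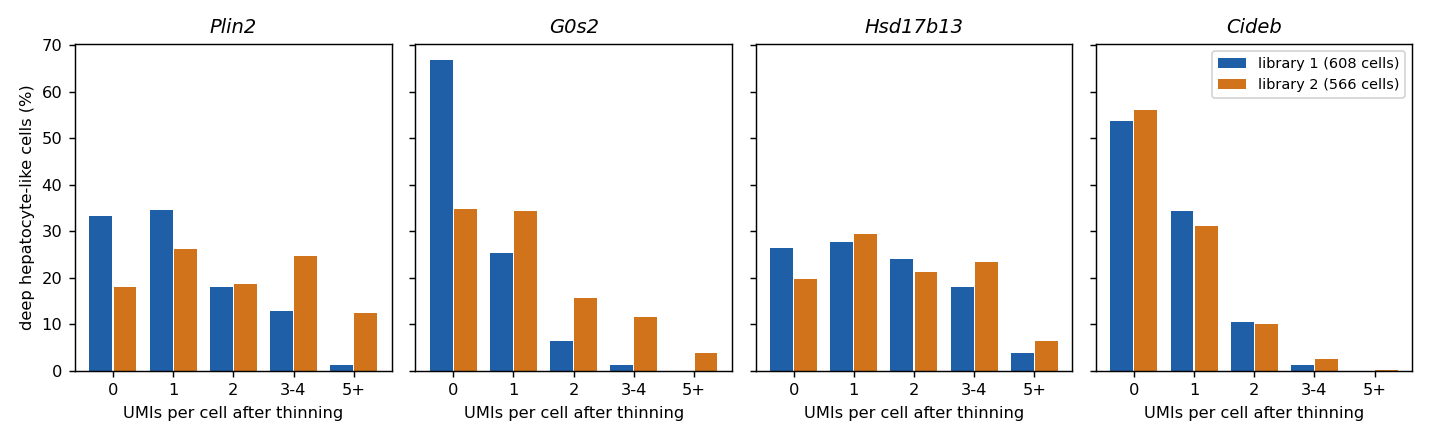
Share of deep hepatocyte-like cells (y axis, %) with 0, 1, 2, 3 to 4 or at least 5 UMIs of Plin2, G0s2, Hsd17b13 and Cideb after thinning each cell to 5000 UMIs (x axis), for 608 cells of library 1 in blue and 566 of library 2 in orange. Plin2 and G0s2 are shifted to higher UMIs in library 2, and the bars of Cideb are close in both libraries.

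Before thinning, Plin2 per cell had a median of 199.9 CPM and a highest value of 1344 CPM in library 1, and 381 and 2337 CPM in library 2. For G0s2 the medians were 55.6 and 185.8 CPM and the highest values 608 and 2012 CPM. The 10% of cells with the highest G0s2 (61 and 57 cells) held 44.7% and 36.4% of its UMIs. Fitm1 had a UMI in 28.5% and 12.9% of deep cells, on 288 and 126 UMIs in all, too few to compare its spread with that of G0s2.

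Members hardly varied together from cell to cell. Over the 6 pairs of Plin2, Cideb, G0s2 and Hsd17b13, Pearson's r of log thinned UMIs across 608 and 566 cells lay between -0.05 and 0.11; these cells share a library and a depth, and counts this sparse hold r near 0. The 3 genes most like Plin2 among 2405 were Acaa2, Dbi and Etfb (mean r over both libraries 0.28, 0.28 and 0.27), which encode a thiolase of mitochondrial fatty acid oxidation, an acyl-CoA binding protein and an electron carrier of fatty acid oxidation. For Hsd17b13 they were Alb, Gc and Ahsg (0.31, 0.29 and 0.29), all of plasma proteins. For G0s2 they were Ttc36, Ddt and Fabp2, and for Cideb Slc25a3, Proc and Apoe, with mean r of at most 0.14. Between Plin2 and Alb the mean r was -0.23. As given above, deep cells with few mitochondrial UMIs had higher Plin2 and lower Hsd17b13 and Alb in both libraries. Mitochondrial share was not held fixed when r was taken, and its part in these likenesses was not tested.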

How the data were processed

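Single-cell suspensions of mouse liver were made by perfusion and digestion and purified on Percoll, and each sample was run on its own 10x Genomics 3' v3.1 lane. The authors deposited whole counts of UMIs for each gene in each barcode; the submitters' processing notes name Cell Ranger 7.1.0, STAR 2.7.2a, bcl2fastq 2.20.0 and mm10. The sources used here give no gene annotation, cell calling, intron or strand setting, nor say whether depths were equalised. Barcodes and gene names were read from the other deposited files.

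Droplets were kept with at least 500 UMIs, 200 genes and at most 25% of UMIs from 13 mitochondrial genes. A class needed at least 2 of its markers, 3 UMIs and 0.2% of UMIs (1% for neutrophil and erythroid); droplets in gates of several lineages (48 and 64) were left out, and no doublet caller was run. Hepatocyte-like droplets passed no other gate and held at least 3 of 11 markers and 5% of UMIs in them. Near the limits, 114 and 48 droplets with at least 5000 UMIs had a marker share of 4 to 6%, and 74 and 80 hepatocyte-like droplets had 4500 to 5500 UMIs. Droplets passing no gate (459 and 256) stayed unnamed. UMIs were summed per class and library and given as CPM, and a ratio had 3 UMIs added to each sum. No test was run since each genotype had 1 library and no label ties either library to a genotype. Intervals are exact Poisson or Clopper-Pearson at 95%. The members and gene lists were chosen with earlier results of these data known. Listed genes past 2-fold were named from 20 CPM in either library, and the 3 genes most like a member by mean r. Of the matrix's gene IDs 32158 were found in the GENCODE M21 annotation used for positions. Statistics were tested on simulated data. The alternatives were other mitochondrial, depth and gate limits, another denominator or scaling, a mean over cells, deeper cells left out and other added UMIs. Further ones were no filter on low values, a stand-in for free RNA subtracted, other cuts of the zonation order and thinning to 3000 UMIs. Python 3.11.15, numpy 2.4.6, scipy 1.17.1, pandas 2.3.3 and matplotlib 3.10.9 were used.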

Additional observations from a re-analysis of the deposited data

Results flagged for a closer look

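Members were also read in the barcodes left out by the filters, 5696 in library 1 and 8915 in library 2, nearly all for a mitochondrial share above 25%. These values are listed because the report's comparisons do not use these barcodes and the members were above the level that a count of 0 allows in them. Hsd17b13 stood at 161 CPM in library 1 and 222 CPM in library 2, Plin2 at 84.0 and 107 CPM, G0s2 at 33.6 and 130 CPM, and Cideb at 57.9 and 63.5 CPM. All 4 were lower than in deep hepatocyte-like cells of the same library, and G0s2 and Plin2 were again higher in library 2. Fitm1 stood at 16.6 and 14.0 CPM, Fitm2 at 12.6 and 15.6 CPM and Plin5 at 13.6 and 10.9 CPM. Plin4 stood at 0.702 and 0.794 CPM and Cidec at 0.864 and 0.718 CPM. Cidea was above that level in library 2 only, at 0.416 CPM.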

How the results depend on the processing

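G0s2 was past 2-fold higher in library 2 under every alternative run, with log2 ratios of library 1 over library 2 from -1.57 to -1.34, and Plin2 lay between -1.10 and -0.88. Plin2 joined G0s2 when the mean UMIs of B-like and T-like cells were subtracted as a stand-in for free RNA, making 2 members. Fitm1 remained past 1.5-fold between the outer parts of the zonation order in both libraries under every alternative, at log2 ratios from -2.47 to -0.62 in library 1 and -3.07 to -1.25 in library 2, while other members joined it, in part with the opposite slope. In library 1 there were 3 members with a mitochondrial limit of 10% (Fitm2, turned from -0.40 to 0.92, and Hsd17b13 at 0.66, both higher periportally) and 2 with deep cells from 3000 UMIs (Hsd17b13 at 0.92, periportally). In library 2 there were 4 with deep cells from 3000 UMIs (Plin5 at -0.60 and G0s2 at -0.80, pericentrally, and Hsd17b13 at 0.60, periportally), and 2 each, with Plin5 or G0s2 higher pericentrally, with a mitochondrial limit of 10%, a hepatocyte gate of 10%, a mean over cells, or the top 5% of UMIs left out. With a mitochondrial limit of 10%, the log2 ratio between the libraries in deep cells was -0.15 for Fitm2 and 0.0074 for Hsd17b13. Plin2 between the outer parts turned to a log2 ratio of 0.09 in library 2 in deep cells with at least 5% mitochondrial UMIs, an alternative chosen after seeing the data. Genes past 2-fold among all compared numbered 178 higher in library 1 and 247 in library 2. The first count became 1003 with a mitochondrial limit of 10%, 801 with the stand-in for free RNA subtracted and 459 with no filter on low values. The second became 155 with a hepatocyte gate of 10% and 2846 with no filter. The median log2 ratio of all genes moved from 0.01 to 0.25, 0.13 and -0.16 with the limit of 10%, the subtraction and no filter; the cause was not tested. Members highest in deep hepatocyte-like cells, 4 in each library, numbered 5 and 6 with a mitochondrial limit of 10%, and 3 to 5 under the other alternatives. Of the members' CPM values under the alternatives, 56 moved beyond their counting interval and 164 did not. With thinning to 3000 UMIs, 4 of the members' variance over mean values moved by at least 2 approximate standard errors and 5 did not. No paired analysis was possible because no result comes from a test and no label ties either library to a sample. Plin4, Cidea and Cidec rest on at most 36 UMIs in deep cells.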
